A study of Mus musculus with 6 samples.

Results

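Keratins 8 and 18 and the genes of desmosomes, tight junctions and cadherin contacts were followed in Lewis lung carcinoma (LLC) cells, a transplantable mouse tumour line, after transfection with a microRNA mimic. The 10 genes Krt8, Krt18, Jup, Pkp3, Dsp, Tjp1, Ocln, Cdh1, Cdh2 and Ctnnd1 were chosen by name, and 9 of them were found among the 24794 genes of the count table. Cdh2 was not analysed here. The cells of 3 libraries carried mimics of miR-291-3, which the design text of the series identifies as miR-291a-3p, and those of the other 3 carried control mimics. Both groups were the same LLC line with no further genotype or treatment given, and neither the time after transfection nor the mimic's own sequence was given. The comparison addresses what raising this microRNA changes in the cells. Whether replicates were grown as separate cultures is not said in the labels. The p-values set the difference between groups against the spread of libraries within a group, which may be technical only. They therefore apply to these libraries alone.

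These genes build the contacts by which epithelial cells hold together. Keratin 8 and keratin 18 pair to form the intermediate filaments of simple epithelia, and desmoplakin, plakoglobin and plakophilins tie such filaments to desmosomes. Occludin spans the membrane at tight junctions, where the scaffold ZO-1, encoded by Tjp1, links it to actin. E-cadherin and N-cadherin, encoded by Cdh1 and Cdh2, join cells at adherens junctions, and p120-catenin, encoded by Ctnnd1, holds cadherins at the surface. Loss of E-cadherin and of keratins is the textbook sign of a carcinoma cell that has moved towards a mesenchymal state. A microRNA acts on messenger RNAs mainly through its seed, bases 2 to 8 from its 5′ end, which pairs with sites in the 3′ UTR.

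The mature microRNA and the seed matches found in the members' annotated 3′ UTRs are shown as a description of sequence. Coding sequence and other 3′ UTR forms were not searched. The mature sequence comes from RefSeq (chr7:3218968-3218989, plus strand, GRCm38.p6), with the seed in capitals. The sites were sought in the longest 3′ UTR of each gene in GENCODE M21 on GRCm38, which is not the build named for the deposited values, and the matched bases are in capitals.
miR-291a-3p: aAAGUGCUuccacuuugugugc
Jup site: gatccaggctcAGCACTTtct
Ctnnd1 site: cacttccagctGCACTTctt
Jup was the single member with a match of 7 bases or more, AGCACTT at chr11:100371253-100371259 on the minus strand, bases 205 to 211 of an 845-base 3′ UTR. Ctnnd1 held the 6-base match GCACTT at chr2:84600740-84600745 on the minus strand, bases 2147 to 2152 of 2821. The 3′ UTRs of Krt8, Krt18, Pkp3, Dsp, Tjp1, Ocln and Cdh1 held none, and those of Krt8 and Krt18 were short, at 242 and 66 bases. As background, 11580 tested genes had an annotated 3′ UTR, of which 20.9% held a match of 7 or 8 bases and 33.4% one of 6 to 8 bases. The words sought, on the strand of the transcript, were the 8-base match AGCACTTA and the parts of it that hold 7 or 6 bases, the shortest being GCACTT. A match is a description of the sequence and not a measured site.

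Libraries held 25376993 to 32963986 counts, so that 1 CPM (read counts scaled to the library total, with TMM factors) stood for 24.9 to 33.6 counts. Of the 13779 genes tested, 3349 rose and 3423 fell in the mimic libraries, 49.1% in all, by the quasi-likelihood test of edgeR with a Benjamini-Hochberg threshold of 0.05. The risen genes made up 24.3% and the fallen genes 24.8%. With total counts in place of TMM scaling, 2341 rose and 4444 fell. The 3 values of one group lay wholly above or below those of the other in 54.9% of genes. Of the 9 members found, 7 had enough counts to be tested, each with 15 or more in every library. Krt8, Krt18, Jup and Tjp1 rose, Pkp3 and Ocln fell, and Ctnnd1 did not pass. The median log2 change of the 7 was 0.16, against -0.01 over all genes tested. The 6 of 7 called stand against 49.1% of all tested genes. In all 7 the groups did not overlap in CPM, against 54.9% of all genes.

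**Figure D1:**
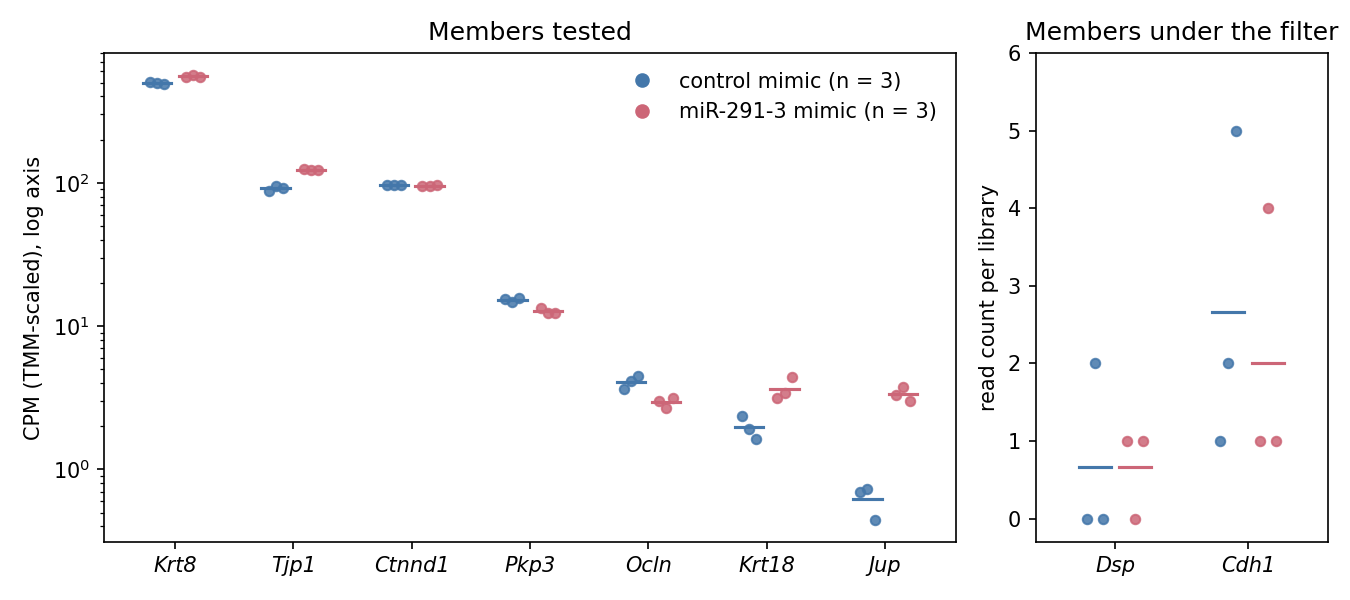
Level of each member by library. On the left, CPM on a log axis for the 7 tested members, and on the right, raw read counts of Dsp and Cdh1, with 3 control and 3 mimic libraries each and a bar at each group mean. Krt8 sits near 500 CPM while Jup moves from under 1 to above 3 CPM, and Dsp and Cdh1 stay at 5 counts or fewer in every library.

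Per length of transcript, the members spanned from nearly nothing to among the highest genes of the cell. Krt8 stood at 223.5 ± 3.64 FPKM in the control libraries (SD, n = 3), above or equal to 98.6% of all tested genes by its mean over the 6 libraries. Ctnnd1 (11.7 ± 0.0987 FPKM) and Tjp1 (10.4 ± 0.386) followed, at the 73rd and 74th percentiles over all libraries. These neighbours changed order, since Tjp1 exceeded Ctnnd1 in each mimic library and lay below it in each control library. Pkp3 (3.73 ± 0.112 FPKM), Krt18 (1.21 ± 0.222), Ocln (0.863 ± 0.0961) and Jup (0.0867 ± 0.0231) came next in the controls. Cdh1 was listed at 0.01 to 0.03 FPKM, and Dsp at 0.01 in 1 library and at 0.00 in the other 5.

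The E-cadherin gene Cdh1 and the desmoplakin gene Dsp were near zero in both groups. Cdh1 had 1, 2 and 5 counts in the control libraries and 1, 4 and 1 in the mimic libraries. Dsp had 0, 2 and 0 counts and then 1, 0 and 1. No fold change was computed for either gene, because any change at this level was not detectable at this depth. Other markers of lung epithelium were likewise low. Epcam, a surface protein of most epithelia, had 4 counts in all control libraries together and 1 in the mimic libraries. The 13 lung epithelium markers, of which 8 were analysed here, summed to 11.5 to 12.3 CPM in the control and 9.21 to 10.4 CPM in the mimic libraries, most of it from Foxa2 (7.64 ± 0.455 and 6.25 ± 0.304 CPM), a transcription factor of endoderm. Ager (1.43 ± 0.468 and 1.56 ± 0.397 CPM) and Foxa1 (0.853 ± 0.102 and 0.83 ± 0.0807 CPM) came next by the mean over all 6 libraries. Napsa, the gene of a protease that matures surfactant protein, was above Foxa1 in the controls and fell from 1.02 ± 0.147 to 0.371 ± 0.13 CPM (0.364-fold, edgeR adjusted p = 0.000174), the largest change of the tested epithelium markers. Mesenchyme markers summed to 3141 to 3215 and 3001 to 3039 CPM, with Vim, Col3a1 and Sparc the highest (2063 ± 12.2, 560 ± 20.9 and 395 ± 4.42 CPM in the controls). The cells labelled as lung carcinoma thus held almost no Epcam or Cdh1 at this depth and abundant Vim, the gene of the mesenchymal filament vimentin, in both groups. Krt8, a keratin gene of simple epithelia, was abundant as well (223.5 ± 3.64 FPKM in the controls), so the markers were mixed. The mesenchyme list was uneven: Fap had 1 count in each group, and Acta2 and Col1a1 had 8 counts each in the controls. Of its 8 tested genes 3 rose, 4 fell and 1 did not pass, against 24.3% risen and 24.8% fallen over all tested genes. Sparc (1.50-fold), Pdgfrb (1.25-fold) and Acta2 (5.08-fold, from 8 control counts) rose. Vim (0.91-fold), Col3a1 (0.776-fold), Fn1 (0.562-fold) and S100a4 (0.603-fold) fell. Of the 5 tested epithelium markers 2 fell and 3 did not pass, and their part in the results was not tested.

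Keratin 8 was abundant and rose slightly, while its partner keratin 18 was scarce and rose more. Krt8 (ENSMUSG00000049382.11, chromosome 15) stood at 501, 492 and 486 CPM in the control libraries and at 549, 562 and 545 in the mimic libraries. Every mimic library lay above every control library, and the change was 1.12-fold (log2 change 0.16 ± 0.02, SE, edgeR adjusted p = 3.11e-08). With total counts only, the log2 change was 0.11. Krt18 (ENSMUSG00000023043.8, chromosome 15) had 2.36, 1.91 and 1.64 CPM in the controls and 3.13, 3.43 and 4.39 in the mimic libraries. The groups again did not overlap, although mimic replicate 3 stood well above the other mimic libraries. The change was 1.87-fold (log2 change 0.90 ± 0.16, SE, edgeR adjusted p = 2.71e-05), resting on 55 to 71 counts per control library and 78 to 125 per mimic library. The processed pseudogene Krt8-ps, whose reads may be shared with Krt8, had 3 to 13 counts per library. The noncoding gene Gm36026 overlaps the start of Krt8 on the other strand in GENCODE M21. Its log2 change of -0.38 did not pass (edgeR adjusted p = 0.327), and whether counting used the strand is not given.

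The ratio of Krt8 to Krt18 per length was 156, 190 and 217 in the control libraries and 129, 120 and 91.1 in the mimic libraries. Every mimic library lay below every control library, and the log2 ratio differed by -0.73 between the groups. An exact two-sided permutation test gave p = 0.1, the smallest that 3 against 3 libraries allow. Although the 2 proteins pair in the filament, the keratin 18 transcript was far less abundant per length than that of keratin 8 in every library.

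**Figure D2:**
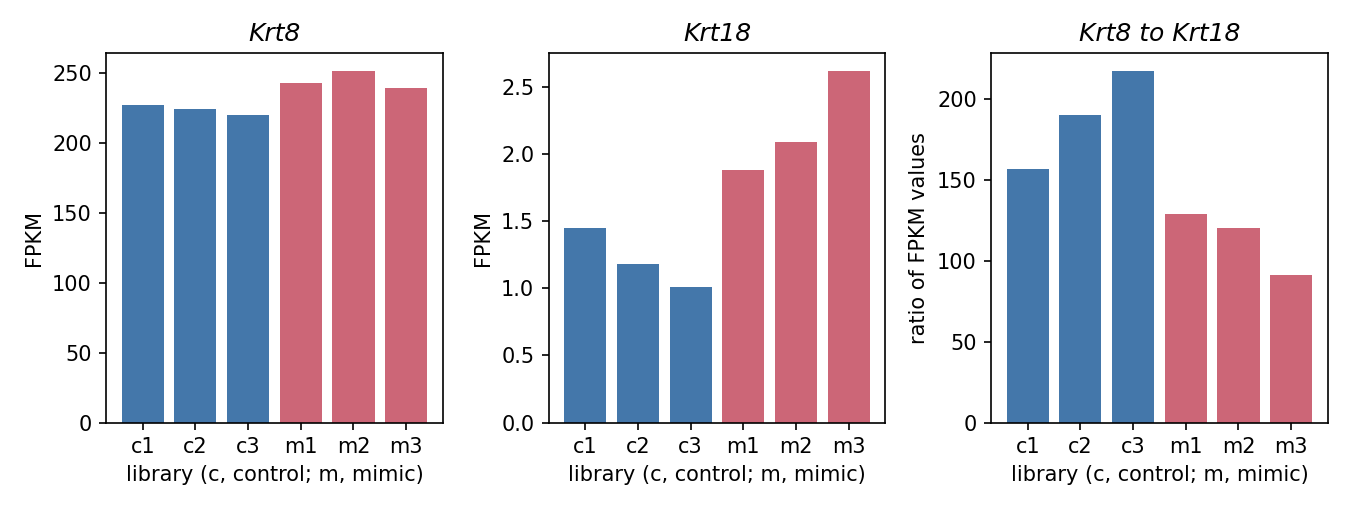
FPKM of Krt8 and of Krt18 and their ratio in each library (c, control; m, mimic; 1 bar per library). Krt8 varies between 219.5 and 251.4 FPKM over all 6 libraries while Krt18 goes from 1.01 in the lowest control to 2.62 in the highest mimic library, so that the ratio falls from between 156 and 217 to between 91.1 and 129.

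Krt8 and Krt18 lie close together on chromosome 15, on opposite strands. Their promoters, 250 bases before to 50 after each start, are shown because both genes rose, by unlike amounts and from very different levels. Capitals mark the box CACCTG or, on the other strand, CAGGTG, the motif that factors of the ZEB and SNAIL families are known to bind. The RefSeq windows are chr15:102004293-102004592 on the minus strand for Krt8 and chr15:102027966-102028265 on the plus strand for Krt18, both GRCm38.p6.
Krt8: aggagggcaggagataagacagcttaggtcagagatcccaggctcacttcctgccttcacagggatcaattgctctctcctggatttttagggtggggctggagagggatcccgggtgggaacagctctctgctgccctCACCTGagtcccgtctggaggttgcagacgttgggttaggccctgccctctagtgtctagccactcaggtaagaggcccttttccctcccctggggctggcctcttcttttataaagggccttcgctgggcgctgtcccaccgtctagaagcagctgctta
Krt18: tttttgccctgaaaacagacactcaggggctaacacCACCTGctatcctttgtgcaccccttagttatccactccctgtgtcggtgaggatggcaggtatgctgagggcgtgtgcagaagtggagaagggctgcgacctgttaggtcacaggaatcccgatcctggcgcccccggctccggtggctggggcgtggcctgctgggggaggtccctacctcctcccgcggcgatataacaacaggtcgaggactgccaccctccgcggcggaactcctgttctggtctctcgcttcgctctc
Each window held 1 such box, and 20.2% of 32851 RefSeq promoter windows of this length held at least 1. A match is no measured binding site. The Krt8 window had 6 CG dinucleotides and the Krt18 window 17. Of the other members in the table, Dsp and Ocln also held a box, while the windows of Jup, Tjp1 and Ctnnd1 held none. No window was at hand for Pkp3 and Cdh1.

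Among desmosomal genes, plakoglobin rose from a very low level and plakophilin 3 fell. Jup (ENSMUSG00000001552.15, chromosome 11) encodes plakoglobin, the armadillo protein that binds desmosomal cadherins and can also replace beta-catenin at adherens junctions. It had 0.697, 0.728 and 0.446 CPM in the control libraries (15 to 21 counts) and 3.29, 3.76 and 3.02 CPM in the mimic libraries (82 to 104 counts). The mimic libraries were all far above the controls, 5.41-fold on average (log2 change 2.44 ± 0.21, SE, edgeR adjusted p = 2.42e-11). Jup had the largest change of the members, and it is the single member with a seed match of 7 bases. Whether that match has a part in the change was not tested. On scales with a pseudocount the change was smaller, 1.56 for log2(FPKM + 0.1) and 0.42 for log2(FPKM + 1), and Jup lay at 0.06 to 0.51 FPKM over the 6 libraries.

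Pkp3 (ENSMUSG00000054065.13, chromosome 7) encodes plakophilin 3, which anchors desmoplakin at the desmosomal plaque. It went from 15.3, 14.6 and 15.6 CPM to 13.3, 12.4 and 12.4 CPM. The highest mimic value lay below the lowest control value, and the fold was 0.833 (log2 change -0.26 ± 0.07, SE, edgeR adjusted p = 0.00147). Pkp2, the related plakophilin 2 of many cell types including heart muscle, went the other way, from 32.7 ± 1.42 to 51.0 ± 1.06 CPM (1.56-fold, edgeR adjusted p = 4.07e-14). Pkp4 (76.5 ± 1.25 and 79.8 ± 3.35 CPM) did not pass (edgeR adjusted p = 0.133). Of the 13 other desmosome genes listed, 3 were analysed here and 2 tested, of which 1 rose. Dsc2, a desmosomal cadherin gene, had 2 counts in all, both in control libraries.

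Tight junction genes moved in opposite directions. Tjp1 (ENSMUSG00000030516.15, chromosome 7), the ZO-1 scaffold, had 88.1, 94.4 and 91.4 CPM in the controls and 125, 123 and 122 in the mimic libraries. Its groups lay well apart, and the rise was 1.35-fold (log2 change 0.43 ± 0.03, SE, edgeR adjusted p = 7.76e-14). Ocln (ENSMUSG00000021638.13, chromosome 13), the occludin gene, had 3.62, 4.16 and 4.52 CPM in the controls and 3.01, 2.67 and 3.16 in the mimic libraries. The lowest control and the highest mimic value lay close together, and the fold was 0.717 (log2 change -0.48 ± 0.13, SE, edgeR adjusted p = 0.0036). Ocln rested on 74 to 152 counts per library.

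The rest of the tight junction and polarity list was called about as often as genes in general. Of 33 genes listed, 28 were analysed here and 14 were tested: 5 rose, 2 fell and 7 did not pass, with a median log2 change of 0.07. The 7 called of 14 stand against 49.1% of all tested genes. With total counts only, 4 rose and 3 fell. Genes of the PAR polarity complex, which places tight junctions, were among those that rose: Pard6b from 8.18 ± 0.201 to 13.1 ± 0.824 CPM and Pard3 from 33.7 ± 0.787 to 39.7 ± 1.25 CPM. Marveld1 was among the 2 that fell, from 39.4 ± 0.577 to 34.25 ± 1.74 CPM. The claudin gene Cldn12 rose from 63.9 ± 2.76 to 72.5 ± 1.96 CPM. Cldn9 rose as well, from 14.3 ± 0.956 to 17.6 ± 1.13 CPM (edgeR adjusted p = 0.000307). Cldn15, at 0.418 and 0.502 CPM on average, did not pass. The claudins Cldn1, Cldn2, Cldn4, Cldn6, Cldn7, Cldn10, Cldn18 and Cldn23 had 10 counts or fewer in each group of 3 libraries.

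Of the tested members, the catenin gene Ctnnd1 changed least. Ctnnd1 (ENSMUSG00000034101.15, chromosome 2) had 96.4, 97.0 and 96.4 CPM in the control libraries and 94.2, 94.3 and 96.0 in the mimic libraries. All mimic values were lower, by so little that the log2 change of -0.03 ± 0.03 (SE) did not pass (edgeR adjusted p = 0.468). With total counts only, the log2 change was -0.08 and passed (edgeR adjusted p = 0.0132).

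Other cadherin-complex genes that rose did so mostly by small amounts. Of 22 cadherin, catenin, nectin and associated genes listed, 20 were analysed here and 11 were tested. Of these, 6 rose, 2 fell and 3 did not pass, with a median log2 change of 0.11. The 8 called of 11 stand against 49.1% of all tested genes, of which 24.3% rose and 24.8% fell. With total counts only, 4 of the list rose and 2 fell, and with DESeq2 or limma 4 rose and 1 fell. Nectin2, an immunoglobulin-like adhesion molecule of adherens junctions, had the largest change of these, from 6.60 ± 0.138 to 13.8 ± 1.46 CPM (2.08-fold, edgeR adjusted p = 1.08e-11). Its relative Nectin1 did not pass (edgeR adjusted p = 0.079). The 2 that fell were Afdn, from 139 ± 2.99 to 127 ± 1.86 CPM, and Nectin3, from 44.0 ± 1.9 to 41.1 ± 1.37 CPM. For Nectin3 the groups overlapped in CPM (edgeR adjusted p = 0.0433). The alpha-catenin gene Ctnna1 rose from 168 ± 0.401 to 193 ± 1.66 CPM and the vinculin gene Vcl from 106 ± 2.01 to 132 ± 4.22 CPM. Ctnnb1, the beta-catenin gene and closest relative of Jup, rose 1.07-fold (log2 change 0.10, edgeR adjusted p = 4.53e-05). With total counts only, its log2 change was 0.04 (edgeR adjusted p = 0.0467). Per length, Ctnnb1 stood at 77.5 ± 0.712 FPKM in the controls and 81.2 ± 1.7 in the mimic libraries, against 0.0867 ± 0.0231 and 0.45 ± 0.0557 for Jup. The cadherins Cdh3, Cdh4, Cdh5, Cdh11 and Cdh13 had 8 counts or fewer in each group of 3 libraries, and Cdh15 was at 2.24 and 2.18 CPM on average and did not pass.

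All 4 tested genes of the list of other keratins and their linkers rose, against 24.3% of all tested genes. Of 19 genes listed, 10 were analysed here, and the 4 tested had a median log2 change of 0.67. The keratin genes Krt7 (1.40 ± 0.175 to 2.24 ± 0.179 CPM) and Krt80 (8.83 ± 0.312 to 14.1 ± 1.03 CPM) rose 1.59-fold and 1.60-fold. Periplakin and plectin, plakin proteins that link keratin filaments to junctions and other structures, rose too: Ppl from 2.46 ± 0.211 to 4.64 ± 0.233 CPM and Plec from 293 ± 5.56 to 365 ± 6.3 CPM. The 4 tested genes of this list shared their direction with Krt8 and Krt18, and none of the 4 holds a seed match in its 3′ UTR. Of the other list genes named here by rule, Pard6b, Vcl and Nectin2 hold a 6-base match and Zeb1 one of 7 bases.

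**Figure D3:**
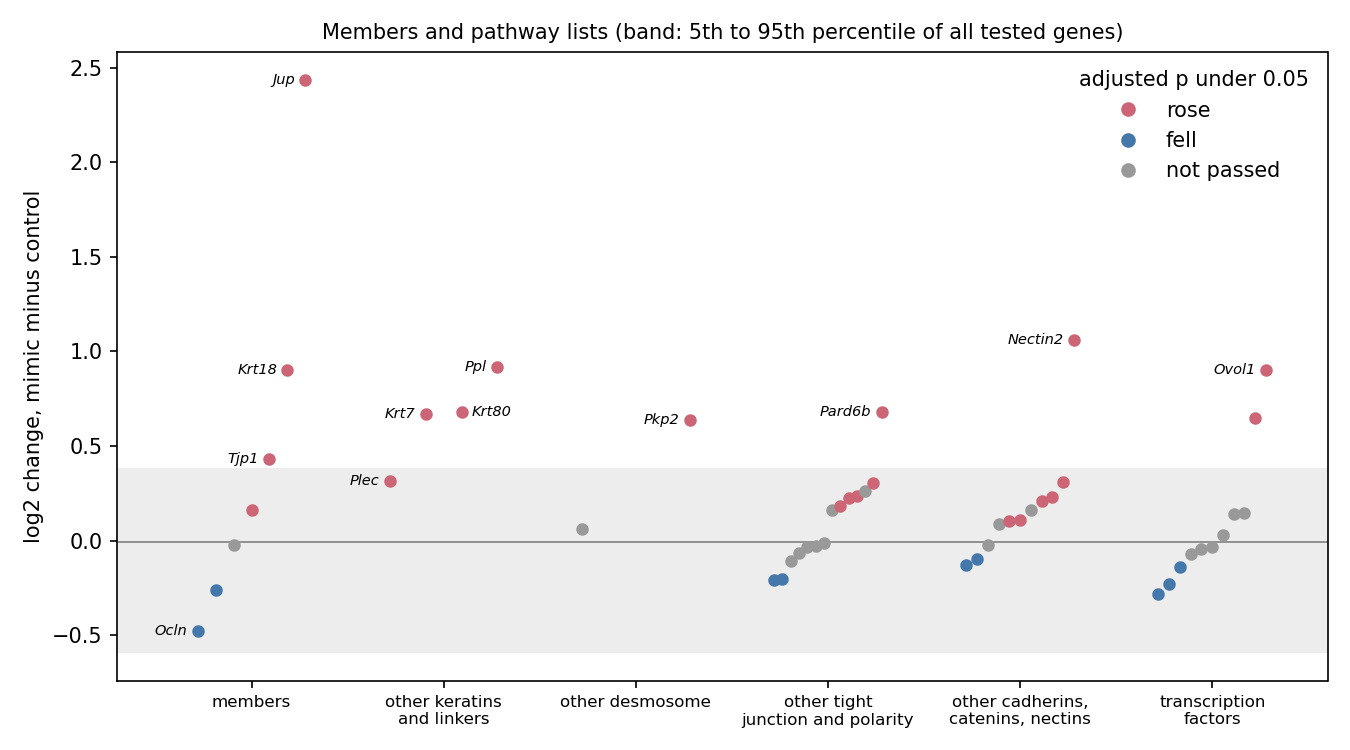
Log2 change, mimic minus control, of the tested genes of each list, coloured by call at an adjusted p under 0.05. The grey band spans the 5th to 95th percentile of all 13779 tested genes and the line marks their median. Jup, at 2.44, lies farthest from the band, and the 4 other keratin and linker genes all lie above the line.

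Transcription factors known to act on these genes, listed with splicing regulators of the Esrp family, moved both ways. Of 17 listed, 15 were analysed here and 11 were tested: 2 rose, 3 fell and 6 did not pass, with a median log2 change of -0.04. The 5 called of 11 are near the 49.1% of all tested genes. Zeb1, a repressor of epithelial genes, fell from 33.7 ± 0.31 to 27.7 ± 1.31 CPM, Twist1 from 61.2 ± 1.27 to 52.1 ± 1.57 CPM and Snai2 from 44.9 ± 2.22 to 40.8 ± 0.387 CPM. Their relatives Zeb2, Twist2 and Snai1 did not pass, with log2 changes of -0.04, -0.07 and 0.03. The epithelial factor gene Ovol1 rose from 0.759 ± 0.18 to 1.44 ± 0.326 CPM (edgeR adjusted p = 0.00312). Esrp2, an epithelial splicing regulator chosen after its value was seen, rose 1.57-fold from 0.924 CPM (edgeR adjusted p = 0.0223). That call was lost with DESeq2, with limma on FPKM, and without control replicate 2, mimic replicate 1 or mimic replicate 3, where Ovol1 was the 1 risen gene of the list. Grhl2, a factor that maintains Cdh1 in epithelia, had 24 counts in the control and 20 in the mimic libraries. Grhl1 of the same family had 20 and 7.

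Other keratin genes gave low counts that differed between mimic libraries. Leaving out Krt7 and Krt80, the 27 other keratin and keratin-associated genes summed to 2, 4 and 5 counts in the control libraries and to 26, 31 and 7 in the mimic libraries. The collagen gene Col1a1 had 2, 1 and 5 counts and then 22, 104 and 3. Both were highest in mimic replicates 1 and 2. With mimic replicate 3 as the only mimic library, a comparison added after these values were seen, Jup rose by a log2 change of 2.29, Krt18 by 1.17, Tjp1 by 0.42 and Krt8 by 0.15, and each passed. Pkp3 fell by 0.30 on the log2 scale and passed, and Ocln had a log2 change of -0.37 that did not (edgeR adjusted p = 0.122). Of the other keratin and linker genes, Krt7 had a log2 change of 0.54 there and lost its call. Krt80 had a log2 change of 0.68, Ppl of 0.92 and Plec of 0.33. The lone library is assumed there to vary like the controls. Leukocyte markers summed to 16.3 to 18.3 CPM in the control and 10.01 to 10.9 CPM in the mimic libraries, with Cd14, Lyz2 and Cd68 the highest and Ptprc at 4 and 0 counts. Endothelium markers summed to under 1 CPM in every library. In bulk RNA, fewer cells of a type and less RNA per cell cannot be told apart. Whether these marker transcripts came from the LLC cells themselves was not tested.

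**Figure D4:**
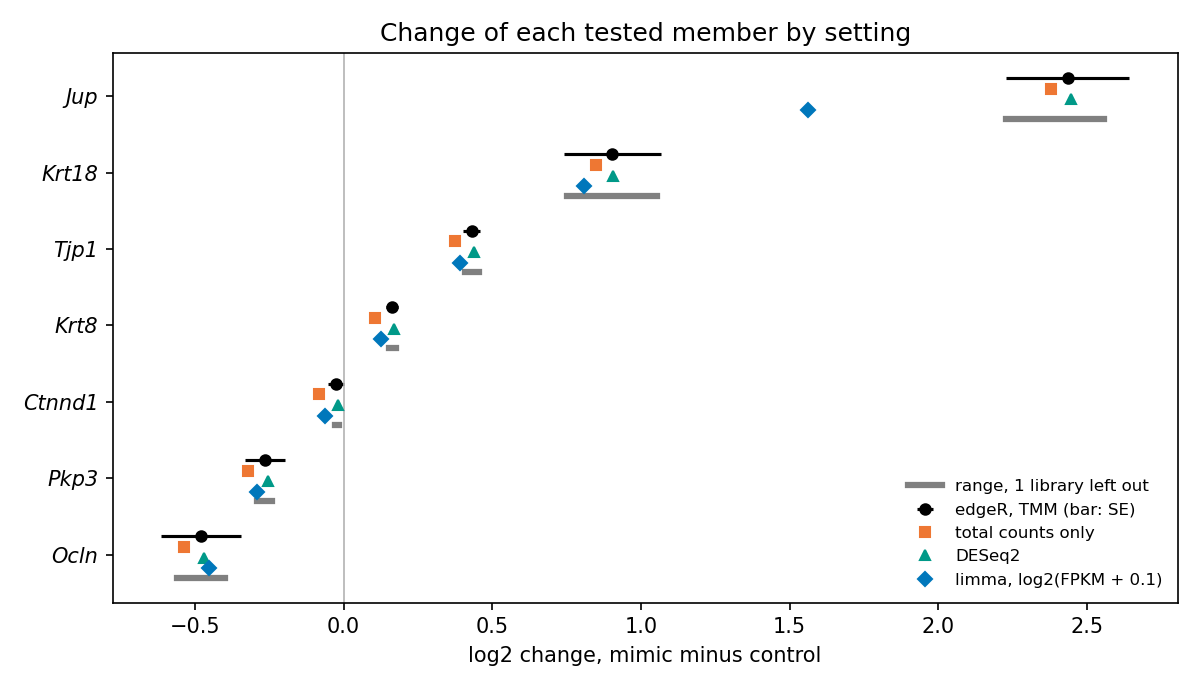
Log2 change of each tested member, mimic minus control, with edgeR and its SE (black), with total counts only, with DESeq2 and with limma on log2(FPKM + 0.1). Grey bars give the range when 1 library is left out. Each member keeps its direction under every setting drawn. Jup is lower, at 1.56, on log2(FPKM + 0.1), where the added 0.1 exceeds its control mean of 0.0867 FPKM.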

How the data were processed

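Libraries were assigned to groups by their titles, 3 each. Per the labels' protocols, polyadenylated RNA was captured and sequenced as strand-specific paired-end reads of 150 bases. GRCm39, HISAT2 and DESeq2 are named, per the submitters' processing notes, without versions; how genes were counted, whether by strand, and which annotation was used is not given in the sources used here. Deposited by the authors were whole-number read counts for 24794 genes and FPKM values, rounded to 2 decimals, for 24494.

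Counts were tested over all genes with edgeR 4.0.16 (R 4.3.3). Genes passed filterByExpr (13779), libraries were scaled by TMM, and glmQLFit and glmQLFTest gave p-values, adjusted by Benjamini-Hochberg and called under 0.05. SE is the log2 change divided by the square root of F. The steps were tested on simulated data. Replicates of a group differed by more than sampling noise (mean chi-square per gene 1.84 to 2.23).

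Members and lists were chosen with earlier results of these data known. Named are all members, up to 4 called genes per list with the smallest p and a mean of at least 1 CPM, and the 3 highest markers of each cell type list. Pkp4, Cdh15, Cldn9, Cldn15, Marveld1, Afdn, Nectin1, Nectin3, Esrp2 and Grhl2 fall outside this rule. So do Zeb2, Snai1, Twist2, Napsa, Fn1, S100a4, Pdgfrb, Gm36026 and the genes named for low counts. All of these were chosen after their values were seen. A gene that the rule takes is not reported here. Sites were matched by gene ID without version. Alternatives were other scalings, filters, DESeq2 1.42.0, limma 3.58.1 on FPKM, a replicate block and each library left out.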

Additional observations from a re-analysis of the deposited data

How the results depend on the processing

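The members' count of 6 called (4 risen, 2 fallen) was 6 under DESeq2 size factors, the DESeq2 Wald test, limma on both FPKM scales, no filter, a minimum of 2 CPM in 3 libraries, an adjusted p under 0.01 and each single library left out. It was 7 with total counts only and 5 with mimic replicate 3 alone. With the replicate number as a block, 6 members and 6887 genes were called, and no call of a member changed. Same-numbered libraries correlated by 0.0274 to 0.0728, each best with its own number, too little to take the numbers as pairs. Over 24 genes, the 7 tested members and the list genes taken by the rule, 354 of 358 values under an alternative kept direction and call. None reversed. The 4 others were Ctnnd1 with total counts only, and Ocln, Krt7 and Snai2 with mimic replicate 3 alone. Genes named outside the rule are not in this count, among them Esrp2 and Pkp4, whose calls changed under some alternatives.

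The cadherin and catenin list had 8 called genes, where 6772 were called over all genes. It had 5 with the DESeq2 Wald test (5229 over all genes) and at an adjusted p under 0.01 (5370). It also had 5 with limma on log2(FPKM + 1) or log2(FPKM + 0.1) (5831 with either). The transcription factor list had 5, and 3 with at least 2 CPM in 3 libraries, a filter that leaves fewer genes tested. The desmosome list had between 1 and 2 called genes when single libraries were left out, with 2 without mimic replicate 3, where Pkp4 passed too. The difference of the Krt8 to Krt18 log2 ratio lay between -0.86 and -0.58 with single libraries left out and was -0.73 in CPM. On log2(FPKM + 1) low genes changed less, Krt18 by 0.53 and Ocln by -0.22. Depth limits Cdh1 and Dsp, at 0 to 5 counts per library.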
